A study of Allium sativum with 42 samples.

Results

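Pseudostem-dominant genes of garlic (Allium sativum) were 192 of 58219 gene IDs whose mean level in the pseudostem was at least 5 FPKM and at least 2.5 times the mean of each of 13 other groups of libraries. FPKM is the number of sequenced fragments per kilobase of transcript and per mega (M) of mapped fragments. The levels in the pseudostem chose these genes, so their height there is a description and carries no test. The genes made up 0.33% of all IDs and 1.03% of the 18647 genes with a pseudostem mean of at least 5 FPKM.

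The pseudostem of garlic is the upright shaft between bulb and leaf blades. It is a false stem, formed by the tubular sheaths of successive leaves wrapped tightly around each other, and it encloses the growing shoot axis. Sheath tissue carries water and sugars between the blades and the bulb, and the sheath bases of a mature plant dry into the skins of the bulb. The files pair no gene names or annotation with the IDs, so roles of single genes are not given, and the tissue label was not checked against marker genes.

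RNA was sequenced from 42 libraries in 14 groups of 3, all from the cultivar Ershuizao grown on a farm field. Bulbs had 8 labelled ages, 5 days apart, the youngest 192 and the oldest 227 days, which covers their expansion growth. Leaves, pseudostems (spelled pesudostems in the labels), garlic sprouts and roots were labelled 212 days, flowers 217 days and buds 10 days. For the tissues labelled 212 days, the growth protocol gives a harvest date that falls on the 217-day bulb sampling. Nothing states that replicates came from separate plants, so p-values measure no more than sample-to-sample spread, part of which may be technical. Tissues were sequenced whole, and a lower level from fewer cells of a type cannot be told apart from less RNA per cell.

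Recovered read totals were 19.4, 18.9 and 15.0 M in pseudostem replicates 1, 2 and 3, and ranged from 5.92 M in leaf replicate 1 to 35.4 M in replicate 2 of the 197-day bulbs. Across all genes, the pseudostem libraries correlated at r = 0.969 to 0.982 with each other on the log2(FPKM + 1) scale and at a mean of 0.933 to 0.947 with the leaf libraries. These r values run across genes of whole libraries, and genes are not independent replicates. Replicate 2 of the 227-day bulbs stood apart from its group, with r as low as 0.899, against a lowest value of 0.960 within any other group.

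The levels of these genes in the pseudostem spanned a wide range. The median of the 192 means was 24.7 FPKM, with quartiles of 10.9 and 110 and extremes of 5.09 and 19065 FPKM. In 149 genes the mean was at least 10 FPKM and in 51 at least 100. The excess over the next-highest group had a median of 3.81 and quartiles of 2.88 and 6.62, and it was at least 5 in 70 genes, at least 10 in 22 and at least 20 in 8. At the edge of the ratio rule, Asa5G01924.1 at 2.501 and Asa0G05732.1 at 2.515 lay inside, and Asa8G00470.1 at 2.477 and Asa6G04349.1 at 2.460 lay outside. At the edge of the level rule, Asa0G01520.1 at 5.09 FPKM and Asa7G01315.1 at 5.10 FPKM lay inside, and Asa5G03286.1 at 4.86 FPKM and Asa7G01934.1 at 4.83 FPKM lay outside. A further 282 genes met the ratio but lay under the level.

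**Figure D1:**
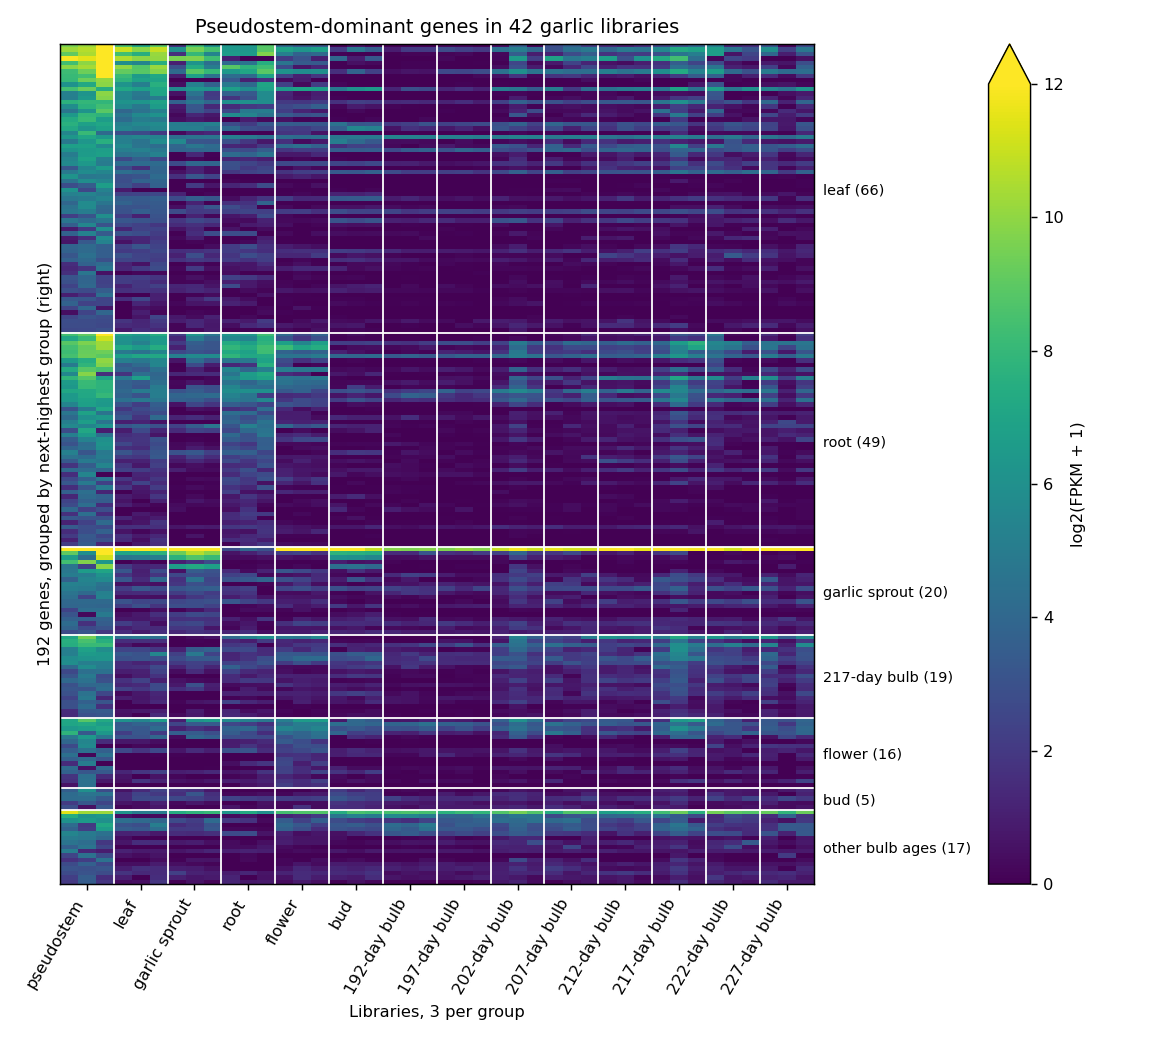
Levels of the 192 genes, one per row, as log2(FPKM + 1) in the 42 libraries, 3 columns per group. Rows are ordered by the group with the next-highest mean (number of genes at the right) and by pseudostem mean within it. The bright columns of pseudostem follow from the rule, and outside them leaf, root and sprout columns are brighter than buds and the youngest bulbs.

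Asa8G04868.1 held the highest level. It stood at 17647, 17310 and 22240 FPKM in pseudostem replicates 1, 2 and 3, with a mean of 19065 ± 2754 FPKM (SD, n = 3). The next-highest group was the garlic sprout at 6472 ± 1545 FPKM, followed by 222-day bulbs at 5416 ± 2654 FPKM. All 3 pseudostem libraries lay above every other library, while leaf, sprout, flower and bud lay lower by 2.95-fold or more on average. Root stood far below, at 6.24, 15.5 and 7.37 FPKM.

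Asa3G05839.1 was the second most abundant, and its mean was set mainly by a single library. Its pseudostem values were 762, 1155 and 13676 FPKM, so replicate 3 held more than the others by an order of magnitude. The leaf libraries came next at 395, 148 and 514 FPKM, below each pseudostem library. The gene was listed at 0 FPKM in the 192-day bulbs and averaged 0.213 ± 0.244 FPKM in buds.

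The highest ratio belonged to Asa7G05450.1, at 327, 837 and 81.7 FPKM in the pseudostem and 135 times the mean of the garlic sprout, 3.08 ± 2.39 FPKM. The lowest pseudostem library exceeded the highest sprout library, 5.74 FPKM, and every mean outside the pseudostem and the sprout was under 1 FPKM. Asa2G04328.1 followed at 68.8, 4.89 and 38.6 FPKM, 132 times the leaf mean of 0.283 ± 0.491 FPKM. That leaf mean rested on 5 reads in replicate 1 and no read in the other leaf libraries, which makes the ratio imprecise. Asa4G05023.1 stood at 190, 360 and 182 FPKM, 23.6 times its mean in 217-day bulbs, and its pseudostem libraries also lay above all 39 others.

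In 108 of the 192 genes the lowest pseudostem library exceeded all 39 other libraries, a pattern found in 322 genes, or 0.553%, of the whole table. The rule used these values, so nothing further is read from the count. In 51 genes each pseudostem library on its own was at least 2.5 times the mean of every other group. Only 11 genes had a mean under 1 FPKM in all 13 other groups, so nearly all of the set was detectable elsewhere.

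Spread between the pseudostem replicates was wide for these genes. The ratio of the highest to the lowest pseudostem library had a median of 3.89, against 1.44 for the other 18455 genes with a pseudostem mean of at least 5 FPKM. It reached at least 5 in 80 genes (41.7%, against 3.04% of the other genes) and at least 10 in 56 genes (29.2%, against 1.21%). A rule on the mean of 3 libraries also admits genes that 1 library lifts, and these shares are given with no test. Without pseudostem replicate 1 the rule picked 224 genes, 177 of them among the 192, without replicate 2 it picked 157 (131 shared) and without replicate 3 it picked 178 (141 shared).

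At the wide end, Asa2G02408.1 stood at 5.52, 51.5 and 0 FPKM and Asa6G04107.1 at 1.97, 43.4 and 0.0556 FPKM. In both, replicate 3 fell below the libraries of the next-highest groups, which were flower and root. At the narrow end, Asa3G02454.1 stood at 15.4, 16.1 and 16.3 FPKM and Asa8G04344.1 at 14.6, 15.1 and 14.2 FPKM. Both of these had the garlic sprout as next-highest group, at 5.92 ± 1.06 and 5.53 ± 1.254 FPKM, with no overlap between the libraries.

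**Figure D2:**
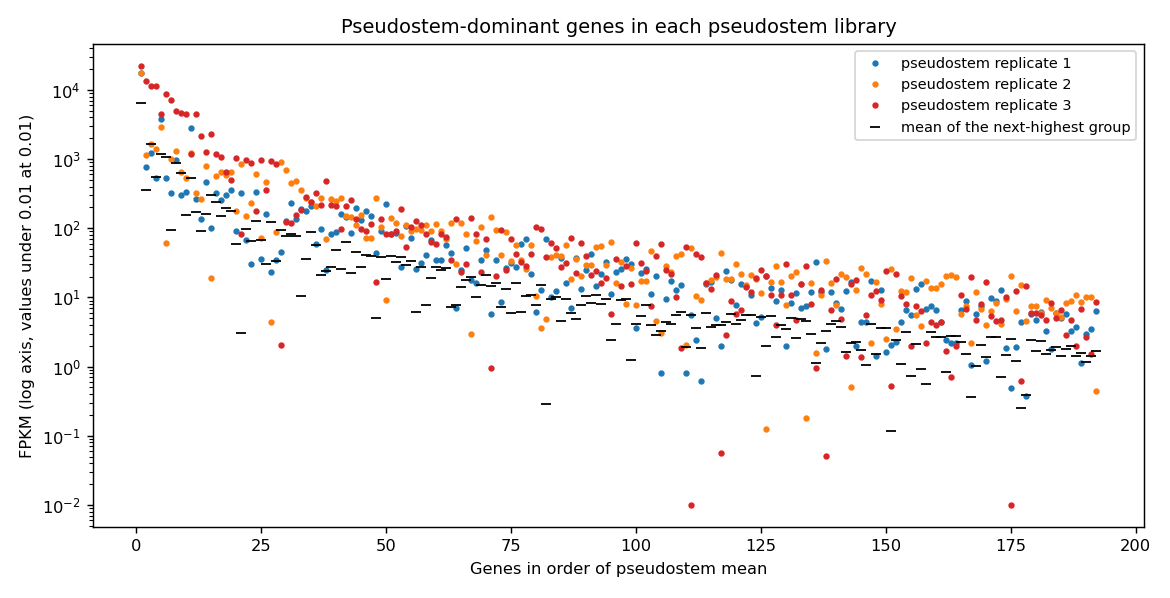
FPKM (log axis) of each gene in pseudostem replicates 1, 2 and 3 (blue, orange and red points) and the mean of its next-highest group (black dashes), with genes in order of pseudostem mean. Values under 0.01 are drawn at 0.01. Red points lie highest among the most abundant genes, and points of 1 gene are often more than 5-fold apart.

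Different genes led in different pseudostem libraries. The highest value fell in replicate 1 for 27 genes, in replicate 2 for 87 and in replicate 3 for 78. Replicate 1 was thus highest for 14.1% of this set, against 34.9% of the other genes with a pseudostem mean of at least 5 FPKM. For replicate 2 these shares were close, at 45.3% and 44.3%, and for replicate 3 they were 40.6% and 20.7%. A value above 2 times both other replicates was found in replicate 1 for 6 genes, in replicate 2 for 40 and in replicate 3 for 42. No share over the other genes stands beside these last counts, which are descriptive.

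The 42 genes that peaked in pseudostem replicate 3 summed to 6280, 10077 and 83824 FPKM in replicates 1, 2 and 3. They included Asa3G05839.1, its ID neighbour Asa3G05840.1 at 1213, 1637 and 11324 FPKM, and Asa5G05153.1 at 529, 61.9 and 8703 FPKM. For the latter pair, the lowest pseudostem library overlapped with leaf or sprout libraries. These 42 genes were picked by their values, and leaf was next-highest for 21 of them, root for 12 and sprout for 5. Outside the pseudostem, leaf replicate 3 was the highest leaf library for 36 of the 42, sprout replicate 2 for 36 of 41 detected there, root replicate 3 for 32 of 40 and flower replicate 1 for 29 of 39. The same libraries led often in the whole set, for 106 of 186 genes detected in leaf, 102 of 166 in sprout, 84 of 177 in root and 79 of 184 in flower. Among the other genes with a pseudostem mean of at least 5 FPKM they led for 38.8%, 41.1%, 31.7% and 31.8% of those detected. The leading leaf and root libraries share replicate number 3 with the pseudostem library, while the sprout and flower libraries carry numbers 2 and 1. What a replicate number stands for is not given in the labels. The part of any shared factor in the pseudostem levels was not tested.

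The 40 genes that peaked in pseudostem replicate 2 were less abundant, summing to 1045, 4669 and 624 FPKM in replicates 1, 2 and 3. Leaf and root were next-highest for 10 each, flower for 8 and 217-day bulbs for 5. Asa6G07607.1 was among them, at 45.3, 906 and 2.03 FPKM, with root next at 24.7, 98.9 and 156 FPKM. Its pseudostem and root libraries overlapped. Replicate 2 of the 217-day bulbs was the highest library of that age for 24 of the 33 detected there, a share near the 119 of 176 over the whole set. Among the other genes with a pseudostem mean of at least 5 FPKM that library led for 47.4% of those detected.

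The set took up 3.25%, 3.79% and 9.91% of summed FPKM in pseudostem replicates 1, 2 and 3. Without Asa8G04868.1 the shares were 1.74%, 2.36% and 8.10%. The 10 most abundant genes of the set held 69.9%, 61.1% and 76.4% of its FPKM in these libraries. In the other groups the mean share ran from 0.993% ± 0.172 in leaf and 0.937% ± 0.308 in sprout, through 0.598% ± 0.167 in 217-day bulbs, 0.499% ± 0.020 in flower, 0.420% in bud and 0.325% ± 0.151 in root, to 0.126% ± 0.005 in 192-day and 0.114% ± 0.017 in 197-day bulbs. Leaf and sprout did not differ beyond their spread, nor did 192-day and 197-day bulbs. Without Asa8G04868.1 root held 0.324%, and the sprout 0.363% ± 0.182.

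**Figure D3:**
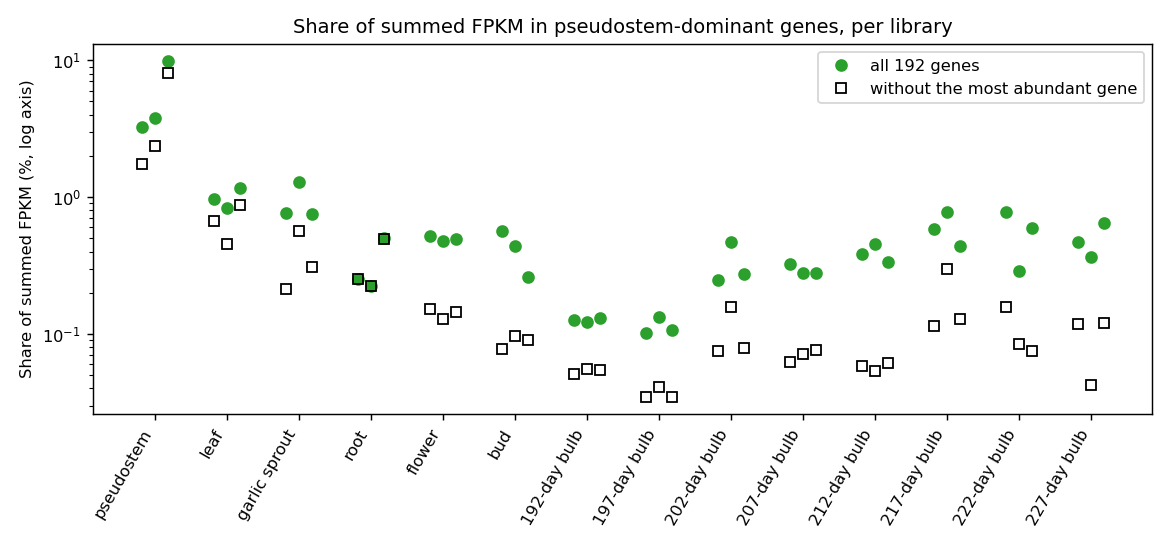
Share of summed FPKM (percent, log axis) held by the genes in each of the 42 libraries, for the whole set and without Asa8G04868.1, 3 points per group. The pseudostem points at 3.25%, 3.79% and 9.91% lie above the others by the rule. For the whole set 192-day and 197-day bulbs are lowest. Without Asa8G04868.1 the 197-day bulbs stay lowest, while other bulb libraries reach shares as low as those of 192-day bulbs.

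The next-highest group was leaf for 66 genes, root for 49, garlic sprout for 20, 217-day bulb for 19, flower for 16 and bud for 5, and the remaining genes had other bulb ages. Leaf was the next group for 34.4% of the set and was the highest group outside the pseudostem for 19.98% of all genes with a pseudostem mean of at least 5 FPKM. For root these shares were 25.5% and 16.5%, for 217-day bulbs 9.90% and 4.05% and for flower 8.33% and 4.30%. For garlic sprout they were close, at 10.4% and 10.7%. Buds were next for 2.60% of the set against 15.2% of all such genes, and 192-day bulbs for 2.08% against 10.8%. These shares are descriptive, since the rule set a ceiling on every group.

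Where leaf was next, the leaf mean had a median of 7.99 FPKM. Asa3G05840.1 reached 1654 ± 632 FPKM in leaf. Where root was next, Asa3G05858.1 led at 332, 542 and 4461 FPKM in the pseudostem and 75.01, 78.4 and 306 FPKM in root, which did not overlap. Asa2G01043.1 followed at 135, 268 and 2149 FPKM, and its root replicate 3, at 185 FPKM, lay above pseudostem replicate 1.

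Flower came next for Asa1G01245.1, at 136, 477 and 155 FPKM in the pseudostem and 35.6, 94.1 and 106 FPKM in flower. It also came next for Asa8G04443.1, at 130, 154 and 97.6 FPKM and 27.8 ± 8.37 FPKM in flower. Neither gene overlapped between pseudostem and the other libraries. Bud came next for Asa2G00397.1, at 11.1, 63.9 and 5.81 FPKM, and for Asa6G01760.1, at 17.1, 23.3 and 22.1 FPKM.

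Bulb ages came next for genes of very different abundance. Asa5G01723.1 stood at 2789, 1244 and 1169 FPKM in the pseudostem and at 540 ± 133 FPKM in 222-day bulbs, with no overlap. Asa0G01953.1 stood at 180, 71.1 and 89.9 FPKM against 41.4 ± 9.51 FPKM in 192-day bulbs, and Asa2G00523.1 at 68.1, 92.4 and 63.4 FPKM against 19.3 ± 2.48 FPKM in 202-day bulbs. Asa4G03459.1 rested on replicate 3, at 17.8, 2.97 and 142 FPKM against 20.03 ± 7.18 FPKM in 192-day bulbs. Asa7G02381.1 was lower but nearly specific, at 30.4, 26.2 and 15.6 FPKM against 1.254 ± 0.454 FPKM in 202-day bulbs. The others named by the same rule, Asa4G02770.1, Asa3G07309.1, Asa7G06010.1, Asa0G03436.1, Asa3G07183.1 and Asa3G06776.1, had pseudostem means of 5.32 to 15.1 FPKM.

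The tests that follow leave the pseudostem out and ask how the same genes differ among the other groups. The rule set a ceiling on each of these groups, and a gene can pass the filter below through a single group where it is high. Shares of the set called are therefore not independent of how the genes were chosen, and are descriptive beside those of all genes. The moderated test of limma was run on log2(FPKM + 1) over all genes that reached 1 FPKM in 3 or more libraries, and p-values were adjusted by the Benjamini-Hochberg method over all genes tested. Genes were called at an adjusted p below 0.05 with a log2 difference of at least 1, a scale that understates the change of genes near 1 FPKM. Genes that reached 1 FPKM in fewer than 3 of the libraries fitted do not pass that filter, even where they were detected elsewhere. Of the 192, 169 were tested among tissues and 124 among bulbs, and counts over them do not describe the whole set. Median-of-ratios scaling shifted the median of all genes by -0.26 in bud against bulb to 0.30 in 227 against 192 days, and with it the median of the set stayed above that of all genes in every comparison except bud against bulb. Leaf, root, flower and bud were each set against the same 212-day bulb libraries.

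Between leaf and 212-day bulb, 102 of the 169 genes tested were higher in leaf, where 18% of all 33216 genes tested were called, and 5 were lower, where 19.8% of all were called. The lower genes numbered 8 with a pseudocount of 0.1 and 13 with 217-day bulbs. The median difference, leaf minus bulb, was 1.39 over these genes and -0.10 over all genes tested. Asa2G01195.1 stood at 1038, 438 and 1129 FPKM in leaf and 1.08, 2.40 and 2.09 FPKM in bulb, a difference of 8.16 ± 0.76 (SE; limma, adjusted p = 1.04e-07). Asa1G03641.1 stood at 219, 115 and 123 FPKM in leaf and was listed at 0, 0 and 0.151 FPKM in bulb. No leaf library of either gene came near a bulb library.

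In the other direction, Asa0G01953.1 was lower in leaf, at 0.404, 0.153 and 0.254 FPKM against 14.2, 15.1 and 15.6 FPKM in 212-day bulbs (-3.65 ± 0.22; limma, adjusted p = 4.06e-10). Asa5G01723.1 was lower in leaf too, at 74.4, 32.8 and 33.3 FPKM against 109, 126 and 174 FPKM (-1.60 ± 0.36; limma, adjusted p = 0.00111). The libraries of leaf and bulb did not overlap in either gene.

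Against the garlic sprout, 74 of 169 were higher in leaf (10.7% of all genes) and 9 were lower (15.8% of all genes). With a filter of 5 FPKM 5 were lower. The median leaf minus sprout difference was 0.93 for the tested genes of the set and -0.20 for all genes. Asa1G03641.1 was listed at 0 FPKM in every sprout library, and its leaf values are given above (7.20 ± 0.41; limma, adjusted p = 1.33e-09). Asa3G02451.1 stood at 28.4, 108 and 15.9 FPKM in leaf and at 0, 0 and 0.145 FPKM in sprout. Sprout exceeded leaf in Asa1G02725.1, at 106, 154 and 110 FPKM against 3.22, 1.44 and 1.65 FPKM (-5.35 ± 0.22; limma, adjusted p = 3.97e-11), and in Asa5G05156.1, at 211, 432 and 274 FPKM against 24.4, 26.3 and 33.0 FPKM. All 4 genes showed no overlap between leaf and sprout.

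Leaf and root divided the set more evenly. In leaf, 47 of 169 were higher (16.7% of all genes) and 16 lower (15.5% of all genes), with a median difference of 0.31 against 0.09 over all genes. With median-of-ratios scaling the counts were 42 and 23, and with a filter of 5 FPKM 31 were higher. Asa1G03611.1 stood at 1502, 959 and 1063 FPKM in leaf and 0.984, 0 and 0 FPKM in root (9.84 ± 0.86; limma, adjusted p = 5.59e-08). Its pseudostem values were 3818, 2920 and 4520 FPKM. Asa8G04868.1, already described, differed by 8.64 ± 0.34 (limma, adjusted p = 3.60e-12). Root exceeded leaf in Asa6G04908.1, at 14.6, 8.09 and 22.7 FPKM against 0.980, 1.23 and 0.517 FPKM (-2.99 ± 0.25; limma, adjusted p = 3.49e-08), and in Asa6G07607.1, by 2.83 ± 0.63 on the same scale, with 2.51, 19.99 and 14.4 FPKM in leaf.

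Root was higher than 212-day bulb in 79 of 169 (16.7% of all genes) and lower in 13 (23.1% of all genes), with a median of 0.91 against -0.25 over all genes. Asa2G01195.1 and Asa3G05858.1 rose most, the latter from 0.548, 0.775 and 1.22 FPKM in bulb to the root values given above (6.07 ± 0.75; limma, adjusted p = 3.34e-06). Asa8G04868.1 was lower in root than in 212-day bulbs, which held 3924, 4698 and 3130 FPKM (-8.60 ± 0.34; limma, adjusted p = 7.38e-12). Asa1G03611.1 was lower too, with bulb values of 105, 6.66 and 67.4 FPKM (-4.92 ± 0.86; limma, adjusted p = 0.00011). With 217-day in place of 212-day bulbs the counts were 52 higher and 21 lower, and a pseudocount of 0.1 gave 20 lower.

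Flower exceeded 212-day bulb in 39 of 169 (8.4% of all genes) and was lower in 8 (11.8% of all genes), with medians of 0.22 and -0.17. Asa4G05037.1 stood at 290, 127 and 172 FPKM in flower and 4.04, 4.62 and 3.47 FPKM in bulb (5.21 ± 0.46; limma, adjusted p = 3.29e-07). Asa4G05042.1 stood at 33.6, 26.4 and 26.8 FPKM in flower and 0.905, 0.429 and 0.444 FPKM in bulb. Both had flower libraries well above all bulb libraries of that age. Asa1G03611.1, at 3.12, 7.36 and 1.04 FPKM, and Asa0G01953.1, at 1.304, 1.79 and 2.97 FPKM, were lower in flower. Bulbs labelled 217 days, the flowers' own labelled age, gave 13 higher and 25 lower, so the balance turned with the bulb age chosen. The lower genes numbered 16 with a pseudocount of 0.1 and 5 with a filter of 5 FPKM.

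Bud and 212-day bulb differed in both directions about equally, with 17 higher (18.4% of all genes) and 16 lower (6.54% of all genes), and the balance depended on the setting. The counts were 11 and 19 with median-of-ratios scaling and 28 and 33 with a pseudocount of 0.1, and 50 were lower with 217-day bulbs. The median difference over these genes was -0.04 with that scaling, against 0.04 over all genes. Asa5G05153.1 stood at 214, 193 and 169 FPKM in bud and 0.614, 1.12 and 0.320 FPKM in bulb (6.86 ± 0.33; limma, adjusted p = 2.17e-10). Asa5G05156.1 had 68.5, 61.2 and 45.1 FPKM in bud and 0.122, 0.222 and 0.159 FPKM in bulb. Asa5G04097.1 was listed at 0 FPKM in every bud library against 70.0, 55.4 and 65.9 FPKM in 212-day bulbs (-6.01 ± 0.37; limma, adjusted p = 3.01e-09), and Asa3G02451.1 was lower by 4.66 ± 0.47 on the log2 scale, with 32.5, 22.7 and 21.1 FPKM in bulb.

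**Figure D4:**
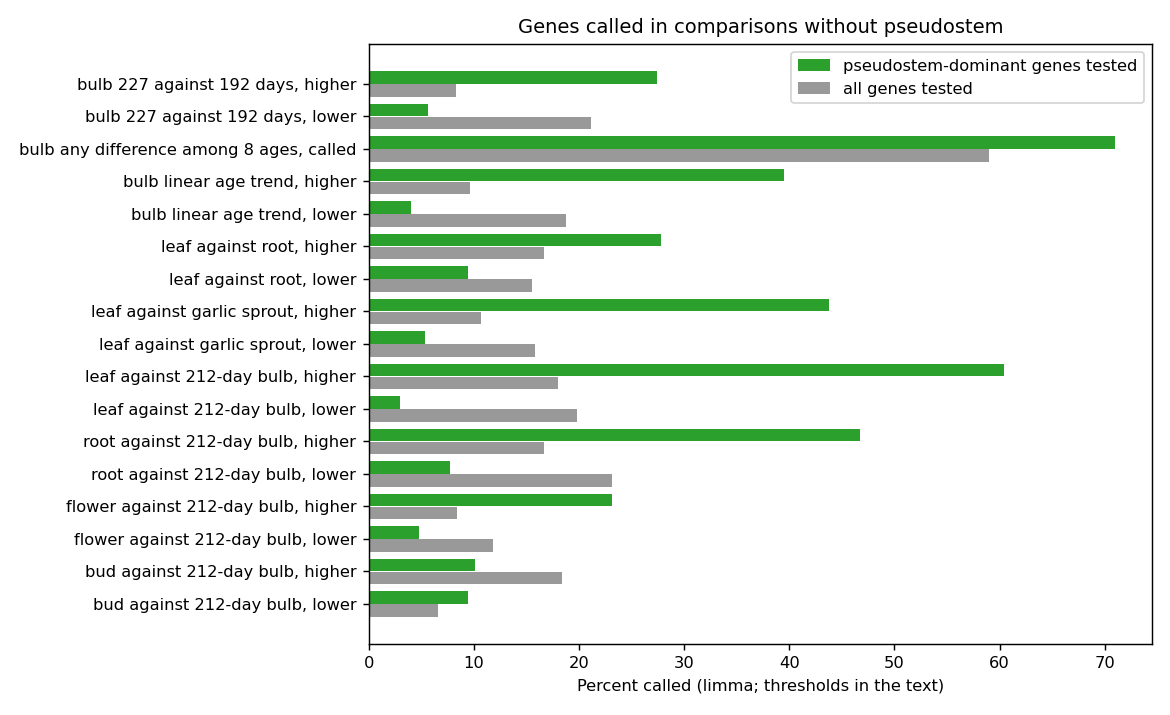
Percent of genes called higher or lower in each comparison that leaves the pseudostem out, for the tested pseudostem-dominant genes (green bars) and for all genes tested (grey bars). Green exceeds grey for higher levels in leaf, root and flower against 212-day bulb and for higher levels with bulb age, and lies below grey for most lower levels.

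Along bulb growth, a linear term for age over the 35 days was called with a rise in 49 of the 124 genes tested (9.6% of all 30430 genes tested) and with a fall in 5 (18.8% of all). The median difference over the whole span was 0.99 for these genes and -0.18 for all genes. The count of falls was 3 without 192-day replicate 3 and also 3 without 227-day replicate 1. The moderated F test over the 8 ages was passed by 88 of 124, against 59% of all genes. A filter of 5 FPKM left 53 of the set to test, with 24 rises along the trend and 44 passing the F test.

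Between the ends of the series, 34 of 124 were higher at 227 than at 192 days (8.32% of all genes) and 7 were lower (21.1% of all genes). The median difference was 0.81, against -0.28 over all genes. Single libraries moved these counts: the higher genes numbered 22 without 192-day replicate 1, 22 without 192-day replicate 2, 21 without 227-day replicate 1 and 20 without 227-day replicate 3. Without 227-day replicate 2, which stood apart, they numbered 50. The lower genes numbered 3 without 192-day replicate 3. The higher genes numbered 59 with a pseudocount of 0.1 and 19 with a filter of 5 FPKM, which tested fewer genes, and the 6 libraries fitted alone gave 16 higher and 4 lower.

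Asa5G04097.1 was listed at 0 FPKM in all 192-day and 197-day libraries, stood at 1.19, 36.5 and 11.6 FPKM at 202 days and reached 88.4, 12.1 and 56.2 FPKM at 227 days (5.34 ± 0.85; limma, adjusted p = 3.44e-05). Asa3G02451.1 was likewise at 0 FPKM at 192 days and stood at 59.2, 3.40 and 34.2 FPKM at 227 days (4.40 ± 0.99; limma, adjusted p = 0.0011). In both, 227-day replicate 2 was the lowest of its age yet lay above every 192-day library. Their log2 differences start from 0 and depend on the pseudocount.

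Asa0G01953.1 fell from 49.0, 44.5 and 30.7 FPKM at 192 days to 1.89, 13.1 and 2.54 FPKM at 227 days (-2.99 ± 0.49; limma, adjusted p = 4.93e-05). Asa3G05980.1 fell from 5.45, 13.04 and 10.7 FPKM to 3.78, 0.346 and 2.80 FPKM (-1.81 ± 0.61; limma, adjusted p = 0.019). The libraries of the ages did not overlap in either gene. In limma, the second call was lost without 192-day replicate 2 (adjusted p = 0.0737), without 192-day replicate 3 (adjusted p = 0.0553) and without 227-day replicate 2 (adjusted p = 0.11). The linear term for age was not called for Asa3G05980.1 (-1.43 ± 0.67; limma, adjusted p = 0.0776). Its mean was 0.831 ± 0.668 FPKM at 212 days and 2.31 ± 1.77 FPKM at 227 days. Over the trend, Asa5G05153.1 fell by 2.27 ± 0.51 on the log2 scale (limma, adjusted p = 0.000546). It stood at 1.83, 1.65 and 8.20 FPKM at 192 days and at 0, 0.202 and 0 FPKM at 227 days. Its 192-day mean of 3.89 ± 3.73 FPKM was not its highest, since a later age had a mean of at least 5 FPKM, so the fall was not steady.

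Which bulb age was highest turned on a single library. The highest bulb mean fell at 217 days for 86 genes, at 222 days for 36, at 202 days for 21, at 227 days for 15, at 192 days for 8, at 212 days for 10, at 207 days for 9 and at 197 days for 2, and 5 genes were listed at 0 FPKM in every bulb library. No shares over the other genes stand beside these counts by age, so they are descriptive. Without replicate 2 of the 217-day bulbs, 217 days was highest for 39 genes and 222 days for 50. In 61 genes no bulb mean reached 1 FPKM, and in 57 at least one reached 5 FPKM. That library was the highest of the 24 bulb libraries for 73 of the 187 genes detected in bulbs (39.04%), against 18.4% of the other genes with a pseudostem mean of at least 5 FPKM. Replicate 1 of the 222-day bulbs was highest for 13.9% against 1.84%, and replicate 2 of the 202-day bulbs for 8.56% against 3.07%.

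Asa1G03611.1 shows such a course, with 0 FPKM at 192 days, 155, 329 and 19.4 FPKM at 217 days and 0, 0 and 0.435 FPKM at 227 days. Asa4G05023.1 stood at 0, 0.0284 and 0.0289 FPKM at 192 days, at 0.610, 24.2 and 4.38 FPKM at 202 days and at 3.60, 23.4 and 4.003 FPKM at 217 days. Replicate 2 was highest at both of these ages in Asa4G05023.1. Asa8G04868.1 rose more evenly, from 871 ± 61.9 FPKM at 192 days through 2540 ± 848 at 202 days and 3917 ± 784 at 212 days to 5416 ± 2654 FPKM at 222 days and 4798 ± 1178 FPKM at 227 days. From 212 days on its ages did not differ beyond their spread.

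**Figure D5:**
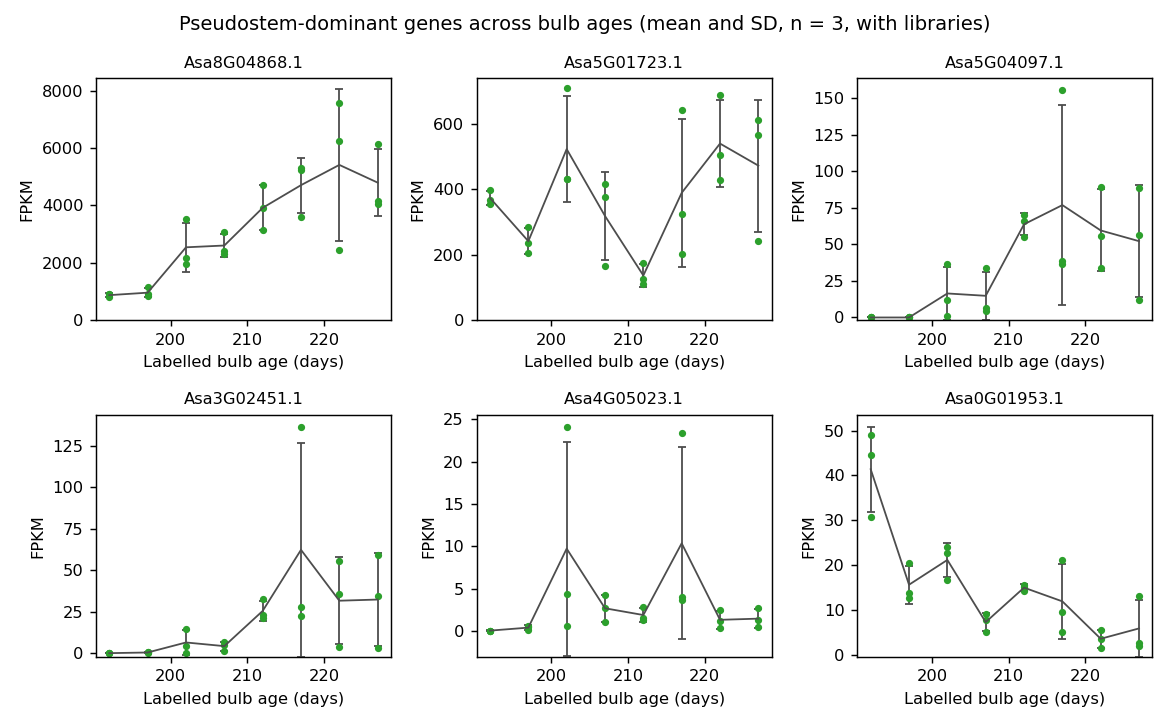
FPKM of 6 of the genes against labelled bulb age in days. Green points are libraries, and the line joins means with SD bars (n = 3). Asa8G04868.1, Asa5G04097.1 and Asa3G02451.1 are lowest in the youngest bulbs, Asa0G01953.1 is highest there, and Asa4G05023.1 shows single high libraries at 202 and 217 days.

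Some of the genes carried neighbouring ID numbers. In 18 runs of consecutive numbers lay 39 of the 192 (20.3%), and 3 runs held 3 genes each. Of the other 18455 genes with a pseudostem mean of at least 5 FPKM, 64.5% had an ID neighbour at that level, but they are far denser among the IDs, so the shares are not comparable and nothing is read from the count. Asa6G07411.1, Asa6G07412.1 and Asa6G07413.1 stood at 34.99, 89.4 and 837 FPKM, at 529, 1404 and 11213 FPKM and at 1.04, 2.19 and 19.4 FPKM in pseudostem replicates 1, 2 and 3. Asa4G02101.1, Asa4G02102.1 and Asa4G02103.1 ran from 67.9, 36.0 and 6.21 FPKM in replicate 1 to 974, 955 and 104 FPKM in replicate 3. Both runs thus peaked in replicate 3 with leaf as the next group, while the run Asa3G05978.1, Asa3G05979.1 and Asa3G05980.1 was more even, with replicate 3 at 36.0, 68.9 and 253 FPKM and replicate 1 at 23.4, 31.6 and 86.4 FPKM. Whether consecutive numbers mean neighbouring positions is not given in the sources used here, and near-identical copies could share reads, so values within a run are uncertain.

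A wider stretch of IDs, chosen after its values were seen, held 9 of the genes between Asa4G05023.1 and Asa4G05177.1, among 155 IDs of which 52 had a pseudostem mean of at least 5 FPKM. Root was next-highest for Asa4G05099.1, Asa4G05037.1, Asa4G05026.1, Asa4G05042.1, Asa4G05035.1 and Asa4G05102.1. By ID prefix, the set held between 0.875% and 1.41% of the genes with a pseudostem mean of at least 5 FPKM for Asa0G to Asa6G and Asa8G, and 0.372% for Asa7G (8 genes). Coding length, recovered from the FPKM values, had a median of 714 bases over 188 of the genes, against 801 bases over 18453 of the other genes at that level.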

How the data were processed

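One deposited table gave FPKM for 58219 gene IDs in 42 columns, each matched to a sample by its title. The FPKM values were made by the authors, who used Bowtie2 and RSEM per the submitters' processing notes. The sources used here give no versions, reference or annotation. Each sample had its own RNA extract and paired-end library, per the labels' protocols. FPKM is scaled to mapped fragments, so a few abundant genes lower all others. Reads were recovered because values were whole multiples of a fixed step: all 45750 genes above 0 came out whole within a tolerance of 0.001. Genes above 0 in a single library come out whole by construction. The reads served for depth, coding length, replicate agreement and the read numbers quoted, and entered no limma test. The scale of the lengths was itself fitted to give multiples of 3, and lengths were multiples of 3 for 94.5% of 38950 genes. Counting error alone limits low values.

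The members, lists and rules were chosen with earlier results of these data known. Tests used limma 3.58.1 in R 4.3.3 on log2(FPKM + 1) with group means, a variance trend and Benjamini-Hochberg adjustment, for genes reaching 1 FPKM in 3 or more libraries. Fits held 24 bulb libraries or 18 libraries of 6 tissues without pseudostem. The procedure was tested on simulated data. Sums and ranks used Python 3.11.15. No 2 replicates agreed within sampling noise. Samples sharing a replicate number did not all deviate together, which cannot exclude a shared plant or batch. Named genes were at most 2 per category: highest level, highest ratio, next-highest group, widest and narrowest spread, largest called rise and fall with at least 5 FPKM, rule edges and longest ID runs. Genes with neighbouring IDs beyond these, and groups by leading library, were chosen after their values were seen. Alternatives covered pseudocount, filter, scaling, samples in the fit, bulb age, replicate block and leaving out each library.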

Additional observations from a re-analysis of the deposited data

How the results depend on the processing

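The number of pseudostem-dominant genes was 85 with a ratio of 4 in place of 2.5, 272 with a ratio of 2 and 108 when no library overlap was allowed. Median-of-ratios scaling gave 147 genes, 146 of them among the 192. Scaling every library to the same summed FPKM gave 169 (168 shared). With group medians in place of means the rule picked 146 genes, of which only 120 were among the 192. Leaving out single libraries gave 157 (without pseudostem replicate 2, 131 of them among the 192) to 224 (without pseudostem replicate 1). In an alternative added after seeing the data, the genes highest in 217-day bulbs numbered 39, against 86, without replicate 2 of that age. Over the 32 results for named genes, 833 of 836 alternatives kept direction and call, 3 lost the call (all for Asa3G05980.1) and 0 reversed. These genes were named for the largest called differences in the same data, so the tally does not speak for the rest of the set.

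With a pseudocount of 0.1 the counts were 59 higher at 227 days, 8 lower in leaf, 20 lower in root and 16 lower in flower than in 212-day bulbs, and 28 higher and 33 lower in bud. A filter of 5 FPKM, which tests fewer genes, gave 19 higher at 227 days, 24 with a rising trend, 44 by the F test, 31 higher in leaf than root, 5 lower in leaf than sprout and 5 lower in flower than bulb. The 6 libraries of 192 and 227 days alone gave 16 higher and 4 lower. With 217-day bulbs, 13 were lower in leaf, 52 higher and 21 lower in root, 13 higher and 25 lower in flower, and 50 lower in bud. Median-of-ratios scaling gave 11 higher in bud. The causes were not tested. The filter and the smaller fit tested fewer genes, and the smaller fit also estimated the spread from fewer libraries.

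Without single libraries, 227 against 192 days ranged from 20 to 50 higher and 3 to 8 lower, the trend from 45 to 64 rising and 3 to 6 falling, and the F test from 76 to 96. Leaf ranged from 36 to 51 higher and 12 to 20 lower against root, 53 to 81 and 7 to 9 against sprout, and 87 to 106 and 5 to 7 against bulb. Root ranged from 69 to 80 and 10 to 14, flower from 26 to 41 and 8 to 11, and bud from 13 to 19 and 13 to 17 against bulb.

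With the replicate number as a block, bud against bulb gave 11 higher and 7 lower, where bud numbers 4 and 7 have no partner and only number 1 informs the contrast, and other counts stayed within 1.5 times. Same-numbered samples did not all deviate together: in each of the other comparisons between 2 groups at least 1 pair correlated below 0.1. The main tests treated the samples as unpaired, but a low correlation between tissues cannot exclude a shared plant or batch. Pairs with the pseudostem, which enters no test, were not examined.

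Depth limits the low values, above all in leaf replicate 1 at 5.92 M reads, and with 3 libraries per group a mean can rest on 1 of them.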
